A study of Mus musculus with 11 samples.

Results

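Regions of differential H3K27 acetylation were examined at 10 genes of fibroblasts and of the extracellular matrix, in a preparation sorted for cardiomyocyte nuclei: *Pdgfra*, *Postn*, *Lum*, *Dcn*, *Col1a2*, *Col8a1*, *Col15a1*, *Fbn1*, *Fbln2* and *Adamts5*. A region was taken where the middle of its most significant 500 bp bin, the top bin, lay in the body of one of these genes or within 100 kb of it, with that gene as the nearest protein-coding gene. This gave 15 regions of the 1652 in the deposited table, and each of the 10 genes had at least 1. The table lists regions that the authors had selected on the difference between genotypes, so the genotype difference at these regions is given as a description and was not tested.

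H3K27ac (acetylation of lysine 27 on histone H3, a mark of active promoters and enhancers) was profiled by CUT&RUN, in which an antibody guides a nuclease that releases the marked chromatin. The *Tbx5*G125R/+ libraries (n = 6) came from mice heterozygous for a missense change in the cardiac transcription factor *Tbx5*, introduced into the germ line by CRISPR-Cas9. The control libraries (n = 5) carry no other description than control. In both groups the mice were 8 to 12 weeks old, left and right atria were pooled, and nuclei positive for PCM1 (pericentriolar material 1, a protein at the envelope of cardiomyocyte nuclei) were sorted. Sex is not given, and the labels do not state how many mice entered a library, so the spread between libraries may be partly technical. No readout of the *Tbx5* allele is in the table, so the genotype labels were not checked.

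Fibroblasts build the interstitial matrix between cardiomyocytes. They secrete fibrillar collagen, which gives the tissue tensile strength, microfibrils and fibulins that carry elastic fibres, and small leucine-rich proteoglycans that coat and space collagen fibrils. Cardiomyocytes are known mainly as neighbours of this matrix and not as a major source of its fibrillar part.

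Start sites could be placed for 7 of the 10 genes, and in 3 of them a differential region covered the start site. Where a gene had several, the start site nearest to the middle of the top bin was taken. The promoter windows of these 3 genes are shown because they are the regulatory sequences on which the acetylated regions lay. Each runs from 250 bases before to 50 bases after the start site on the strand of the gene, from RefSeq with build GRCm38.p6, whose chromosomes are those of mm10. The windows are chr5:75152001-75152300 (*Pdgfra*, plus strand), chr6:4505368-4505667 (*Col1a2*, plus strand) and chr16:57754688-57754987 (*Col8a1*, minus strand). Capitals mark, on either strand, matches to the GC box, whose letters are GGGCGG, and to the sequence known by its letters as the CCAAT box.
Pdgfra: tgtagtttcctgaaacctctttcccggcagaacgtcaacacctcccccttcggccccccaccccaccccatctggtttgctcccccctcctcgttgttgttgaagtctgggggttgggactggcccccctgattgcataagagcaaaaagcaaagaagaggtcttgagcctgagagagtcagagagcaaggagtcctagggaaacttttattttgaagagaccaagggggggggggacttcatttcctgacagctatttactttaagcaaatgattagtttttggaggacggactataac
Col1a2: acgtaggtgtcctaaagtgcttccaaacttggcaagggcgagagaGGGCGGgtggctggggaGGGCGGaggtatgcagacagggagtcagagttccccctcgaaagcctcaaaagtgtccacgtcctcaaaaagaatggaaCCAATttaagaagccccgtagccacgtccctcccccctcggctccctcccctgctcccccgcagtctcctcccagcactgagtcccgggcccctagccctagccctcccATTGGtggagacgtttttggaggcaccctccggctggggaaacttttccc
Col8a1: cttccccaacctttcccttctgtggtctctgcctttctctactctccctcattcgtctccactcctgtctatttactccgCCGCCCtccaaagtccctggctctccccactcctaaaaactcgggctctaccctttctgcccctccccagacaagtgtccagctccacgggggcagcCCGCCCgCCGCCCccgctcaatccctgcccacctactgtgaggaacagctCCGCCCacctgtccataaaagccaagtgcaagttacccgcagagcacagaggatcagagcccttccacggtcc

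The *Pdgfra* window lay inside the top bin, whose middle was 1 bp from the start site taken, at 75152251. The gene body of *Pdgfra* begins upstream of it, at 75151322, which its region also covered. The *Col8a1* and *Col1a2* windows ended 14 and 368 bp from the top bins of their regions. GC boxes were found 4 times in the *Col8a1* window and 2 times in that of *Col1a2*, and 35.6% of the 32817 promoter windows of the reference hold at least 1. CCAAT boxes were found 2 times in the *Col1a2* window, against 37.4% of all windows with at least 1. None of the 3 windows held the T-box core GGTGTGA, the AP-1 letters TGANTCA, the TEAD letters GGAATG, a MEF2 match or TATAAA, which 3.98%, 7.81%, 14.7%, 0.558% and 13.6% of all windows hold. These are matches of letters and not sites of binding. A genome sequence for the other regions was not used here.

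The libraries held between 27118 and 72442 reads in the top bins of all listed regions in controls and between 43183 and 161738 in *Tbx5*G125R/+. Control replicate 5 had the lowest summed member level of the controls. Only 6 reads fell in its 15 member bins, 13 of which were at 0, and its summed level was 11.7 normalised reads, against 104 to 148 in the other 4 controls. In this library the other regions with higher signal in *Tbx5*G125R/+ were also lower than in the other controls, with a mean level of 5.57 against 8.72 to 11.04. At the listed regions lower in *Tbx5*G125R/+, this library had the highest mean level of the controls, 145 against 108 to 127. Its size factor, the number by which the reads of a library were divided, was 0.513, the smallest of the controls. Levels below are normalised reads of the 500 bp top bin, so that they compare across regions without a correction for length.

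All 15 regions had more H3K27ac in *Tbx5*G125R/+ nuclei, with ratios of mean levels from 5.11 at *Fbln2* to 61.1 at the first *Col8a1* region. Summed over the 15 bins, the 5 control libraries averaged 104 ± 53.8 (SD) and the 6 *Tbx5*G125R/+ libraries 809 ± 149 (SD), a ratio of 7.81. Without control replicate 5 the controls averaged 126 ± 18.8 and the ratio was 6.39. The libraries of the genotypes did not overlap in 14 of the 15 regions, with *Tbx5*G125R/+ on the upper side, as was the case in 73.2% of all listed regions, and 81.1% of all listed regions had the higher mean in *Tbx5*G125R/+. A count test (edgeR) called 13 of the 15 higher in *Tbx5*G125R/+, against 74.0% of all listed regions, and did not call the second *Dcn* and the first *Adamts5* region. Of the 1339 listed regions with the higher mean in *Tbx5*G125R/+, 90.3% did not overlap and 1223 were called higher. Since the same contrast chose the regions, nothing is read from these counts.

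The scaling of the libraries set the size of these differences. With factors from the trimmed mean of M values (TMM) on the listed bins, the log2 folds of all listed regions shifted by a median of -1.70, and with total reads in the listed bins by -0.73. Both sets of factors came only from bins selected on the genotype difference, of which 81.1% had the higher mean in *Tbx5*G125R/+. From such bins a shared gain and a difference in scale cannot be told apart, so these factors cannot decide which scaling is right. All 15 members kept the higher level in *Tbx5*G125R/+ under both sets of factors, with a lowest log2 fold of 0.57 under TMM factors. Groups that did not overlap went from 14 to 1 and 10 regions, and members called by the count test from 13 to 0 and 7. Calls of all 1652 listed regions as higher went from 1223 to 146 and 633, so nothing is read from these member counts. Relative to all listed regions, the median log2 fold of the members was lower under each: 2.89 against 3.22 as deposited, 1.13 against 1.50 with TMM factors and 2.15 against 2.47 with total reads. In sorted bulk nuclei, a larger share of nuclei that carry the mark and more of the mark in each nucleus cannot be told apart.

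**Figure D1:**
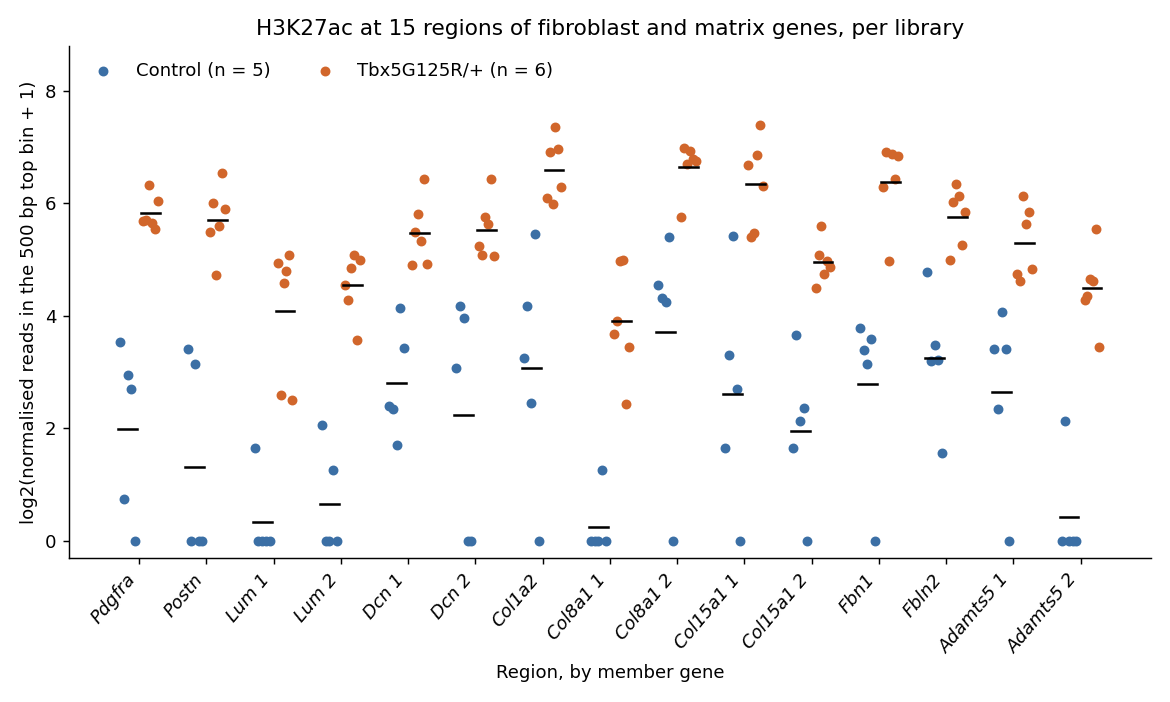
Level of each member region in each library, as log2 of normalised reads in the top bin plus 1, with 1 point per library (blue, 5 control libraries; orange, 6 *Tbx5*G125R/+ libraries) and black lines at the mean of the log2 values. The orange points lie above all blue points in 14 of the 15 regions, and only the first *Col15a1* region shows an overlap. Of the 75 control values, 27 lie at 0.

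*Pdgfra* encodes the receptor for platelet-derived growth factor that marks cardiac fibroblasts. Its region, chr5:75147501-75158500, was the widest of the 15 at 11 kb and covered the start site. The control levels were 10.7, 0.681, 6.75, 5.54 and 0 in replicates 1 to 5. In *Tbx5*G125R/+ the lowest library was replicate 5 at 45.9, the median was 50.9 and the highest was replicate 3 at 79.2. The lowest *Tbx5*G125R/+ library was thus well above the highest control, and the relative spread in *Tbx5*G125R/+, a coefficient of variation of 0.223, was the smallest of all 15 regions. The mean went from 4.72 ± 4.43 to 56.9 ± 12.7, a ratio of 12.0 and a log2 fold of 3.54 ± 0.64 (SE).

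*Postn* encodes periostin, a matricellular protein made by activated fibroblasts. The region, chr3:54480251-54481250, lay 89.7 kb downstream of the gene and was 1 kb wide. Controls had 9.59, 0, 7.87, 0 and 0, so that 3 of 5 libraries held no read. The *Tbx5*G125R/+ libraries ran from 25.6 in replicate 3 over a median of 52.9 to 91.9 in replicate 5. With means of 3.49 ± 4.82 and 55.2 ± 22.3, the ratio was 15.8 and the log2 fold 3.88 ± 0.74 (SE), or 4.69 without control replicate 1. The assignment to *Postn* rests on distance alone, as for all regions outside a gene body.

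*Dcn* and *Lum* encode decorin and lumican, small leucine-rich proteoglycans that bind collagen fibrils and are widely used as fibroblast markers. They are neighbours on chromosome 10, and all 4 of their regions lay outside both gene bodies. The *Dcn* regions, chr10:97375001-97385250 and chr10:97435251-97441250, lay 97.3 kb and 40.0 kb from the gene on the side of lower coordinates. At the first, the control levels were 4.26, 4.09, 2.25, 16.6 and 9.75, and the *Tbx5*G125R/+ libraries had a lowest value of 28.9, a median of 41.7 and a highest of 85.3. This was 1 of 2 member regions with reads in every control library, the other being that of *Fbln2*. The second *Dcn* region had control levels of 7.46, 17.0, 14.6, 0 and 0 and *Tbx5*G125R/+ levels from 32.3 to 85.3 with a median of 42.6. Ratios of means were 6.35 and 6.15. The controls did not rank the same way at both: replicate 4 was highest at the first and held no read at the second.

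The *Lum* regions lay 7.30 and 9.05 kb from the gene on the side of higher coordinates. The first, chr10:97579751-97580250, consisted of the top bin alone and held 2 reads over all controls, both in replicate 1, whose level was 2.13. Its *Tbx5*G125R/+ libraries split, with 4 libraries between 23.1 and 32.8 and replicates 2 and 6 at 5.03 and 4.69. The ratio of pooled reads was 40.5, with a 95% exact counting interval of 11.03 to 337. The second region, chr10:97581501-97588750, held 4 control reads, at levels of 3.20 in replicate 1 and 1.38 in replicate 4. There the *Tbx5*G125R/+ values ran from 10.9 over a median of 25.3 to 33.0, and the means were 0.916 ± 1.41 and 24.0 ± 8.34, a ratio of 26.2. The log2 fold there was 4.59, or 5.97 without control replicate 1. Counting intervals cover counting error only, since amplified fragments are not independent molecules.

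*Col1a2* encodes an alpha chain of type I collagen, the main fibrillar collagen of the heart. Its region, chr6:4501251-4510250, covered the start site, and the top bin lay 0.868 kb upstream of it. The control levels of 8.52, 17.0, 4.50, 42.9 and 0 spread widely, and replicate 4 had the highest control value of all 15 regions. *Tbx5*G125R/+ libraries lay between 62.3 in replicate 3 and 163 in replicate 4, with a median of 98.7. The groups did not overlap, with control replicate 4 nearest to the *Tbx5*G125R/+ range. The means were 14.6 ± 17.0 and 102 ± 40.0, a ratio of 7.02 and a log2 fold of 2.77 ± 0.52 (SE), which was 3.57 without control replicate 4.

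*Col8a1* encodes a chain of the short-chain, network-forming type VIII collagen. Its 2 regions differed in position and in level. The region at the start site, chr16:57750251-57756500, had the highest mean of the 15 in both genotypes, 20.2 ± 14.8 and 103 ± 26.2, a ratio of 5.12. The controls held 22.4, 19.1, 18.0, 41.5 and 0, and the *Tbx5*G125R/+ libraries 52.8 in replicate 1 and 103 to 125.1 in the other 5. The region inside the gene, chr16:57669251-57673750, with a top bin 81.2 kb from the start site, held 1 read over all controls, in replicate 4. *Tbx5*G125R/+ levels there ran from 4.38 over a median of 12.9 to 31.0, and the ratio of pooled reads was 76.9 with an exact counting interval of 13.6 to 3057. That ratio rests on a single control read.

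*Col15a1* encodes type XV collagen, which lies at basement membranes and links them to the matrix. The region at chr4:47176501-47180250, 29.4 kb upstream of the gene, was the only one with an overlap between the genotypes. Control replicate 3 had 41.6 there, against 2.13, 8.86, 5.54 and 0 in the other controls, and lay just above *Tbx5*G125R/+ replicate 2 at 41.3. The highest level of any member region was also found here, 166 in *Tbx5*G125R/+ replicate 5, with a median of 89.8. The means were 11.6 ± 17.1 and 91.1 ± 47.4, a ratio of 7.83, and the log2 fold of 2.89 was 4.22 without control replicate 3. The region inside the gene, chr4:47249751-47253000, had controls of 2.13, 11.6, 3.37, 4.15 and 0 and *Tbx5*G125R/+ levels from 21.5 over 29.4 to 47.4, with no overlap. Its log2 fold of 2.69 was 3.55 without control replicate 2.

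*Fbn1* and *Fbln2* encode fibrillin-1, the backbone of microfibrils, and fibulin-2, which binds to them. The *Fbn1* region, chr2:125378251-125385000, lay inside the gene. The control levels of 12.8, 9.54, 7.87, 11.1 and 0 were close to each other apart from replicate 5, and *Tbx5*G125R/+ libraries ran from 30.5 in replicate 3 over a median of 99.3 to 119 in replicate 2. The means were 8.25 ± 4.96 and 90.4 ± 34.0, a ratio of 10.95 and a log2 fold of 3.37 ± 0.51 (SE). The *Fbln2* region, chr6:91200001-91203250, lay 10.2 kb upstream of the gene. It held 26.6, 8.18, 10.1, 8.31 and 1.95 in controls and ran from 30.8 over 60.3 to 80.4 in *Tbx5*G125R/+, a ratio of 5.11, so that the highest control and the lowest *Tbx5*G125R/+ library were neighbours. The log2 fold of 2.31 was 2.91 without control replicate 1.

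*Adamts5* encodes a secreted metalloprotease that cleaves the proteoglycans aggrecan and versican. Both of its regions lay inside the gene. At chr16:85870251-85875250 the controls held 9.59, 4.09, 15.7, 9.69 and 0, and the *Tbx5*G125R/+ libraries ran from 23.5 over a median of 38.1 to 69.2. At chr16:85886251-85889750 all 5 control reads fell in replicate 2, at a level of 3.41, and *Tbx5*G125R/+ libraries ran from 9.91 over 21.6 to 45.9. The ratios of means were 5.36 and 34.7. The 4 regions with 5 control reads or fewer, at *Lum*, *Col8a1* and *Adamts5*, were those with the 4 largest ratios. At 3 of these, the first *Lum*, the inner *Col8a1* and the second *Adamts5* region, 1 control library held all control reads, so that no ratio can be given without it.

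Ordered by mean level in *Tbx5*G125R/+, the regions ran from the *Col8a1* start site at 103 and *Col1a2* at 102 over *Col15a1* and *Fbn1* to the inner *Col8a1* region at 16.9. None of the 14 neighbouring pairs in this order differed by more than the larger of their SDs. In the 6 *Tbx5*G125R/+ libraries, 0 of the 90 values were at 0, against 27 of 75 in controls, of which 14 were outside control replicate 5.

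Among all listed regions the members were neither the strongest nor the weakest. The median ratio of the members was 7.83, against 10.2 over all 1652 regions and 13.2 over the 1339 with the higher mean in *Tbx5*G125R/+. Their median control level of 7.39 lay above the 2.27 of those 1339 regions, and their median *Tbx5*G125R/+ level of 48.1 above 30.5. The regions of the members were also wider, with a median of 5000 bp against 2500 bp, and lay inside a gene body in 40.0% of cases against 60.4%. Of the 9 member regions whose gene has a start site in the promoter table, 3 covered it, against 171 of 1028 (16.6%) of the higher regions. These are descriptions of 15 regions, and the differences were not tested.

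**Figure D2:**
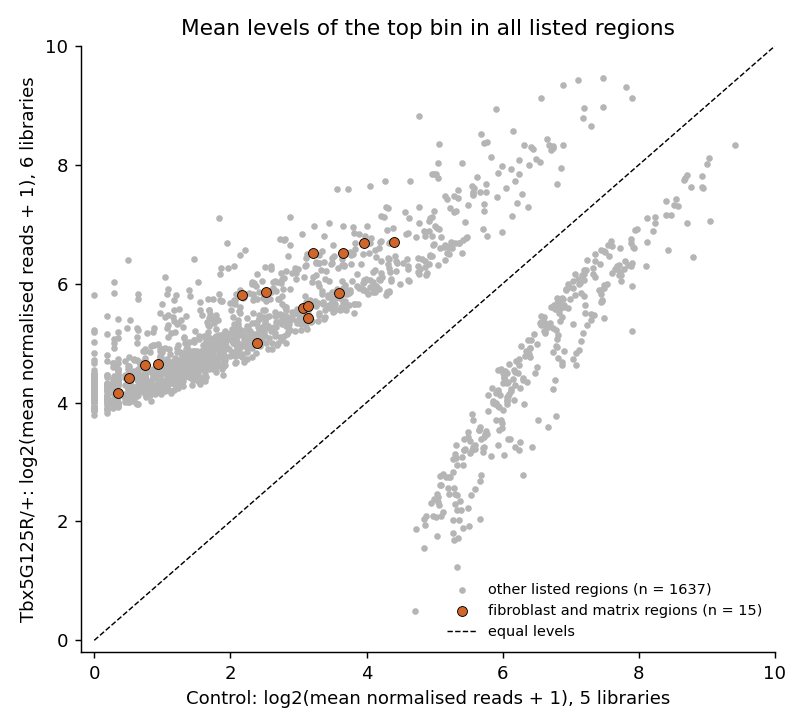
Mean level of the top bin in *Tbx5*G125R/+ (vertical axis, 6 libraries) against control (horizontal axis, 5 libraries) for all 1652 listed regions, both as log2 of mean normalised reads plus 1, with the 15 member regions in orange and a dashed line at equal levels. The members lie within the upper cloud of 1339 regions, and the gap along the dashed line reflects that only regions selected on the genotype difference are listed.

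As a share of the signal in all regions higher in *Tbx5*G125R/+, the members made up 0.833% ± 0.432 (SD) over the 5 control libraries and 1.14% ± 0.128 (SD) over the 6 *Tbx5*G125R/+ libraries. The controls ran from 0.158% in replicate 5 to 1.27% in replicate 4 and overlapped with the 0.953% to 1.32% of the *Tbx5*G125R/+ libraries.

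The rule used no difference between libraries of the same genotype, but the authors' selection of regions can depend on their spread. Within *Tbx5*G125R/+, the summed member level ran from 619.8 in replicate 1 to 959.9 and 1013 in replicates 4 and 5. It was related to the size factor, with Pearson r = -0.89 over 6 libraries (exact permutation test, two-sided, p = 0.0042, adjusted p = 0.0125 over 3 relations) and Spearman rho = -0.94 (exact permutation p = 0.0167, adjusted p = 0.05). Libraries with a small size factor, replicates 5 and 4, had the high levels. Without these 2 libraries, which lay farthest from the median size factor, r was -0.77. The size factor divides the reads to give the level, so the measures share a term. The 1324 other regions higher in *Tbx5*G125R/+ showed the same relation (r = -0.99, exact permutation p = 0.0028, chosen after seeing the data). The relation is therefore not read as particular to the members. The listed regions lower in *Tbx5*G125R/+ had the opposite sign (r = 0.49, exact permutation p = 0.335, and r = 0.93 without the 2 farthest libraries). For the share of the members in the signal of all 1339 higher regions, themselves included, the test did not pass (r = -0.69, exact permutation p = 0.142).

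**Figure D3:**
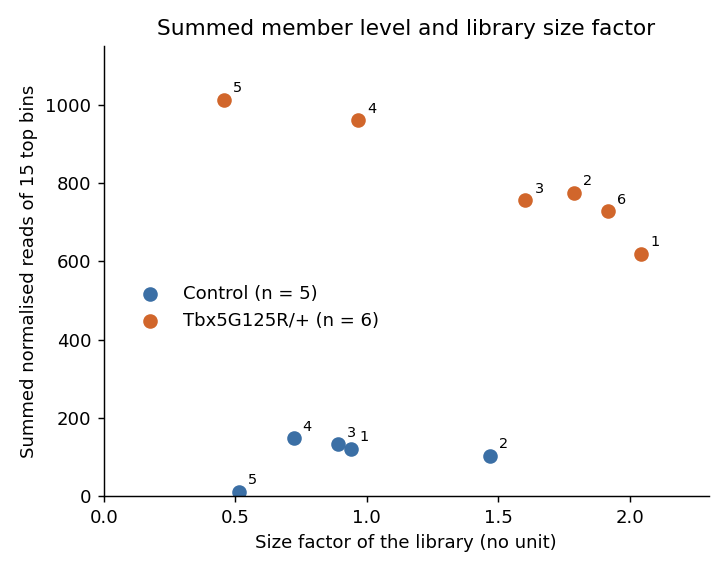
Summed normalised reads of the 15 top bins (vertical axis) against the size factor of the library (horizontal axis), with 1 point per library and the replicate number beside it (blue, control; orange, *Tbx5*G125R/+). *Tbx5*G125R/+ replicate 5, with the smallest size factor, has the highest sum at 1013, and control replicate 5 the lowest at 11.7.

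Marker genes of other cell types were given regions within the same 100 kb of the nearest gene. Every listed region differs between the genotypes by selection, and 81.1% of them had the higher mean in *Tbx5*G125R/+. Only directions and levels are therefore described. Of 12 endothelial marker genes, 3 had listed regions within that limit: *Kdr* with 5, *Cdh5* with 1 and *Erg* with 1. Summed over these 7 regions, control libraries held 164 to 408 normalised reads and *Tbx5*G125R/+ libraries 594 to 871, with the *Erg* region going the other way, from 89.8 ± 62.2 to 23.3 ± 11.4. TMM factors turned the direction of 2 of the *Kdr* regions. These went from 106 ± 44.8 to 310 ± 87.3 and from 59.2 ± 24.5 to 175 ± 37.6. The largest part of the endothelial sum in *Tbx5*G125R/+, 693 on average, came from them. In the following, pairs of means give controls first. *Rgs5*, 1 of 9 mural markers, held 0.550 ± 0.752 and 16.3 ± 9.87, and *Mrc1*, 1 of 10 macrophage markers, 0.818 ± 1.83 and 21.2 ± 8.20. None of 8 epicardial and of 5 Schwann cell and neural markers had a listed region within the limit. Beyond it lay regions of the endothelial marker *Emcn*, 124.8 kb away, at 0.136 ± 0.305 and 14.1 ± 4.73, and of the epicardial marker *Tbx18*, 112.7 kb away, at 7.43 ± 4.64 and 41.0 ± 11.7. *Pecam1*, *Tek*, *Pdgfrb*, *Csf1r*, *Ptprc* and *Wt1* were among the defining markers without a listed region, and regions not listed were not analysed here.

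Listed regions of cardiomyocyte markers went in the opposite direction, as did 313 of all 1652 listed regions. Of 26 genes, 5 had listed regions, and all 6 regions (among them those at *Ryr2*, *Actn2* and *Actc1*) were lower in *Tbx5*G125R/+, and their sum per library was 993 to 1354 for controls against 392 to 459. *Actc1*, cardiac actin, went from 179 ± 39.2 to 42.1 ± 13.7. *Pcm1* itself, *Myh6*, *Tnnt2* and *Ttn* had no listed region, so the sort was not checked on them. Within *Tbx5*G125R/+ no relation of the member level to the endothelial sum (r = 0.21, exact permutation p = 0.706, rho = 0.26, p = 0.658 by permutation) or to the cardiomyocyte sum (r = 0.50, exact permutation p = 0.322, rho = 0.20, p = 0.714 by permutation) passed the test over 6 libraries. The adjusted p-values of r were 0.706 and 0.483. Leaving out the 2 libraries farthest from the median gave r = 0.54 and r = 0.38. The part of non-cardiomyocyte nuclei in the member levels was not tested.

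**Figure D4:**
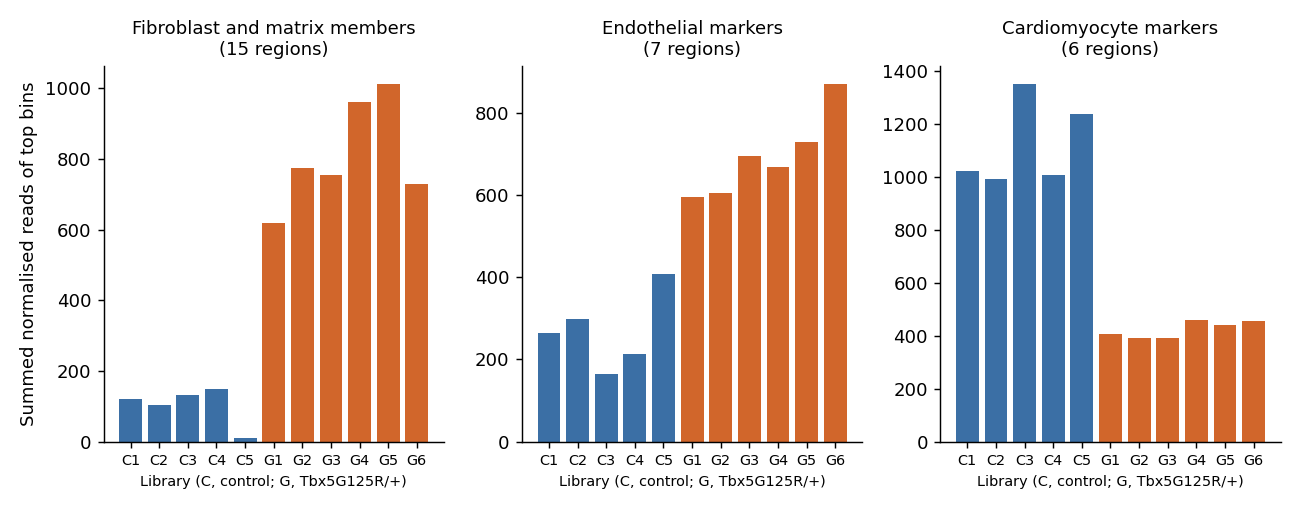
Summed normalised reads of the top bins per library for the 15 member regions, 7 endothelial marker regions and 6 cardiomyocyte marker regions (bars from 0; C, control replicates; G, *Tbx5*G125R/+ replicates; each panel has its own scale). Members and endothelial markers are higher in every G library, cardiomyocyte markers lower.

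The other genes of the matrix were counted from 6 lists (cardiac fibroblast markers, activated fibroblast markers, collagen chains, elastic fibre genes, small leucine-rich proteoglycans, and matrix proteases with their inhibitors and crosslinkers). They held 136 genes, of which 31 had 41 listed regions within 100 kb. Of these, 39 had the higher mean in *Tbx5*G125R/+ and 2 the lower. Without the 10 members, 21 of 126 genes had 26 regions, 24 higher and 2 lower. Of the 24, those at *Vim* and *Ecm2* turned under TMM factors. Among all listed regions, 81.1% had the higher mean in *Tbx5*G125R/+. The counts here and in the single lists below were not tested against that share.

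Of 21 cardiac fibroblast markers, 9 had 12 regions, all with the higher mean in *Tbx5*G125R/+, except that *Vim* turned under TMM factors. *Ddr2*, a collagen receptor, held 1 read over all controls and a level of 27.02 ± 26.6 in *Tbx5*G125R/+. *Mgp*, matrix Gla protein, held no control read and 35.4 ± 14.3, a mean 53.4 times the level that 3 reads over the control group would give. *Scara5*, a scavenger receptor of fibroblasts, had regions at 3.26 ± 3.67 and 28.7 ± 12.7, and at 2.44 ± 4.85 and 31.4 ± 12.2. *Tcf21*, *Gsn*, *Col1a1*, *Col3a1*, *Dpt* and *Thy1*, which are also used to define cardiac fibroblasts, had no listed region. Of 14 activated fibroblast markers only *Postn* and *Cilp* had one, the latter at 3.44 ± 3.06 and 36.4 ± 16.0.

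Collagen chains had listed regions at 9 of 43 genes, 12 regions in all, each with the higher mean in *Tbx5*G125R/+. Beside the members these included *Col6a6*, with regions at 0.954 ± 2.13 and 44.5 ± 22.4 and at 2.37 ± 2.58 and 30.9 ± 11.3. *Col4a4* and *Col14a1* held 1 and 3 control reads and 19.1 ± 7.94 and 18.1 ± 13.4 in *Tbx5*G125R/+. The fibrillar chains *Col1a1*, *Col3a1*, *Col5a1* and *Col5a2* had none. *Col1a2* was thus the only gene of type I and type III collagen with a listed region.

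Of 14 small leucine-rich proteoglycans, 6 had 8 regions, all with the higher mean, of which that at *Ecm2* turned under TMM factors. *Podn* held no control read and 17.8 ± 8.82, a mean 26.9 times the level of 3 reads over the control group. *Epyc*, whose region lay 110.5 kb from *Lum* on chromosome 10, went from 1.61 ± 1.08 to 21.2 ± 14.2. Elastic fibre genes had 6 regions at 4 of 20 genes, 5 higher and 1 lower. *Ltbp1*, which tethers latent transforming growth factor to the matrix, had regions at 13.2 ± 6.79 and 49.4 ± 11.6 and at 1.38 ± 2.11 and 23.8 ± 6.82. *Emilin2* had a region in each direction inside the same gene, from 416 ± 25.8 to 128 ± 37.8 at the first and from 4.43 ± 6.38 to 37.0 ± 14.8 at the second.

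Matrix proteases and their partners had regions within 100 kb at 4 of 34 genes, and none of the matrix metalloproteases, tissue inhibitors or lysyl oxidases of the list was among them. *Adamts12* had 2 higher regions, and *Adamts6* 1, at 0.409 ± 0.914 and 18.0 ± 5.16 with 3 control reads. The *Adamts15* region, 50.4 kb from the gene, was lower, at 118 ± 49.8 in controls and 48.0 ± 8.97 in *Tbx5*G125R/+. A further *Adamts15* region at 138.9 kb, beyond the limit, was higher, at 0.273 ± 0.609 and 22.8 ± 11.3, as was an *Adamts20* region at 199.1 kb, at 23.4 ± 18.2 and 115 ± 26.1.

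**Figure D5:**
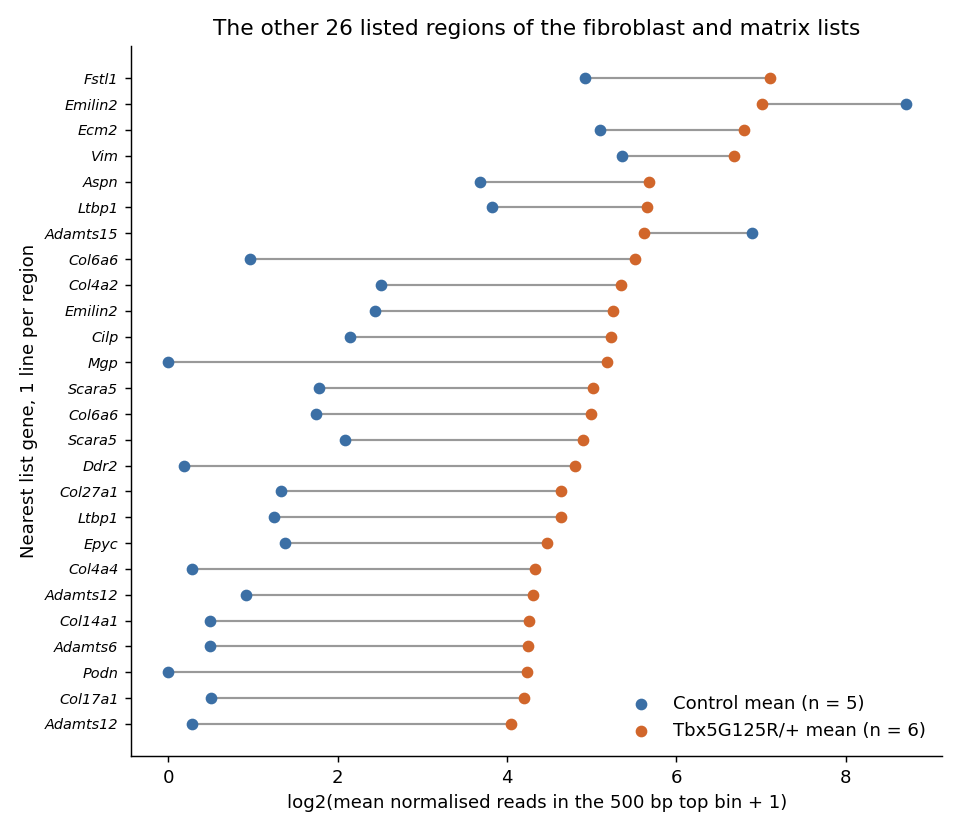
Mean level in control (blue, n = 5) and *Tbx5*G125R/+ (orange, n = 6) for the 26 listed regions of the fibroblast and matrix lists that are not members, as log2 of mean normalised reads in the top bin plus 1, with 1 line per region and the nearest list gene on the vertical axis. In 24 regions the orange point lies to the right, and in 2, at *Emilin2* and *Adamts15*, the blue point does.

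Just outside the distance limit lay a further *Col8a1* region, chr16:57862501-57866500, 108.5 kb from the gene, with 14.4 ± 10.8 in controls and 59.5 ± 21.9 in *Tbx5*G125R/+. The first *Dcn* region, at 97.3 kb, was the member nearest to the limit from within. Upstream of *Col15a1*, at 55.7 kb, a region whose nearest gene is *Galnt12* went from 6.77 ± 7.31 to 71.3 ± 39.5 and was not counted as a member.

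The regions most like the members in how libraries deviated from their genotype mean were those at *Fstl1* (r = 0.97 over 11 libraries, on log2 levels), *Pcsk6* (0.97), *Sema5a* (0.95), *Ube2w* (0.95) and *Ppp2r2a* (0.95). This likeness rested on control replicate 5, whose mean member deviation was -1.67 on the log2 scale, while the other 10 libraries lay between -0.25 and 0.61. Without it the same regions had r = 0.68, 0.67, 0.22, 0.44 and 0.30. Among the members, the median r over 105 pairs was 0.27 with that library and 0.06 without it, and the 2 *Dcn* regions had the lowest value with it, r = -0.61. Without it 57 of the 105 pairs had a positive r, against 78 with it. Points of these correlations share library and depth.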

How the data were processed

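H3K27ac was measured by CUT&RUN in 5 control and 6 *Tbx5*G125R/+ libraries of PCM1+ atrial nuclei, grouped by the labels. BWA, bedtools, DESeq2 and mm10 are the tools and build in the submitters' processing notes, and no versions are stated there. The authors deposited a table of 1652 differential regions, with the signal of each library in the top bin as normalised reads, that is, reads divided by a size factor per library. Columns of the authors' own comparison (a mean log2 fold and an adjusted p) were not used. No value column was left unmatched. Whether duplicates were removed or a spike-in used is not stated, and normalised signal of a top bin chosen for its significance can overstate the difference of its region.

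The members and gene lists were chosen with earlier results of these data known. The text names every member gene and region, up to 4 genes of each other list with the largest ratio of mean levels in either direction, and the 5 other regions most like the members. For cell type lists, genes without a listed region are named as examples.

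Dividing the deposited signal by the worth of 1 read gave whole reads for 100% of values, within 0.05 reads. These were fitted with edgeR 4.0.16 (quasi-likelihood test, R 4.3.3), all 1652 top bins in 1 fit with the deposited size factors and no filter. Benjamini-Hochberg adjustment ran over 126854 tests, the highest region number in the table. At adjusted p under 0.05 it called 1223 regions higher and 214 lower. This test is a check on regions already selected on the same libraries, and was tried on simulated data. The SE was taken as |log2 fold| over the root of the F statistic. Libraries held 27118 to 161738 reads in the top bins, and 1 read was worth 0.489 to 2.19 normalised reads. Where controls held no read, a ratio was computed against 3 reads over the control group, 0.662 normalised reads. Positions are 1-based, on mm10, and genes and promoter windows are from RefSeq GRCm38.p6. Promoter entries were matched by symbol for 7 of the 10 genes. Correlations used exact permutation tests (scipy 1.17.1). Alternatives were DESeq2 1.42.0, TMM factors, total reads, a filter on low counts, a replicate block, other distance limits and leaving out libraries. Of these, TMM factors and total reads were taken from the listed bins alone. Pairing by replicate number was checked on deviations from genotype means.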

Additional observations from a re-analysis of the deposited data

Results flagged for a closer look

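In 5 of 32 groups of libraries tested (15 regions and their sum in each genotype), 1 library lay apart from the others by Dixon's gap at the 95% level, which chance gives in about 1 of 20 groups. Control replicate 1 was the only control with reads at the first *Lum* region, at 2.130 normalised reads. At the inner *Col8a1* region control replicate 4 was the only one with a read, at 1.385, and at the second *Adamts5* region control replicate 2, at 3.407. These 3 values stand for 2, 1 and 5 reads. The other controls there were all at 0, so any read gives the largest gap possible. The rate of 1 in 20 does not hold for these 3 groups. *Tbx5*G125R/+ replicate 1 was low at the *Col8a1* start site, at 52.83 against 103 to 125.1 in the other 5 libraries. Control replicate 3 was high upstream of *Col15a1*, at 41.61 against 0 to 8.86 in the other 4 controls. Without it all 15 member regions were free of overlap. Control replicate 5 was not flagged, either at a single region or for its summed level.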

How the results depend on the processing

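All 240 log2 folds of single member regions kept their direction under the alternatives, 197 of them within 1 SD of the log2 level between *Tbx5*G125R/+ libraries, and they ran from 0.57 under TMM factors to 7.77 with a library left out. The median log2 fold of 2.89 was 1.13 under TMM factors, 2.15 with total reads, 3.33 with the replicate block and 3.46 over regions inside gene bodies, and ran from 2.71 to 3.46 with single libraries left out. The number of member regions was 6 with gene bodies only. Regions without overlap numbered 1 under TMM factors and 14 to 15 without single libraries. Of all listed regions, 459 were called under TMM factors (146 higher, 313 lower), 946 with total reads (633 higher, 313 lower) and 766 with the replicate block (685 higher, 81 lower), against 1437 as reported, and 1146 to 1332 without single libraries. The split between higher and lower calls thus went from 1223 and 214 to these values. The replicate block called 10 members, and the count test 10 to 14 with single libraries left out, fewest without *Tbx5*G125R/+ replicate 3. The filter on low counts kept 13 members and called 11 of them, with 1007 of all listed regions called higher. DESeq2 called all 15 members, with 1337 of all listed regions called higher. Replicate numbers did not pair the libraries: deviations of libraries with the same number correlated at -0.15 to -0.02.

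With the mean of log2 levels in place of the sum, the relation of the member level to the endothelial sum turned (r = -0.14), as did that to the cardiomyocyte sum (r = -0.27). Without single libraries the endothelial r ran from -0.21 to 0.75 and the cardiomyocyte r from 0.31 to 0.73, none past the threshold. For the size factor, Spearman's rho (-0.94, adjusted p = 0.05) and r with the mean of log2 levels (-0.81, adjusted p = 0.0583) missed the threshold, and without single libraries r ran from -0.94 to -0.89, with adjusted p from 0.025 to 0.125, where fewer libraries raise the smallest p possible. The causes were otherwise not tested.

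Depth limits regions with 5 control reads or fewer, whose ratios rest on single reads. Only regions selected by the authors on the same libraries are listed, so neither an absence of change at other genes nor the share of matrix genes that changed can be given.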
